A study of Mus musculus with 18 samples.

Results

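The genes Cd163, Folr2, Lyve1, Pf4, F13a1, Cbr2, Stab1, Cd36, Msr1 and Fcna were followed through 5 groups of sorted mouse brain macrophages. They were taken by symbol from the deposited count table as markers of border macrophages and as scavenger receptors. All 10 were among the 13043 genes of the table, and all 10 were among the 10597 that passed a filter on low counts and were tested.

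Border macrophages live in the leptomeninges, around vessels and in the choroid plexus, and microglia live in the brain tissue itself. Scavenger receptors are surface proteins that bind and take up modified lipoproteins, haemoglobin complexes, dead cells and other debris, and border macrophages are known for high levels of several of them. Microglia that are replaced from bone marrow after irradiation are known to keep an expression profile distinct from that of the resident cells.

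Recipients were wild type mice (C57BL6/C in the labels) that were lethally irradiated and given marrow of the genotype Ms4a3-Cre: R26-TdTomato: Cx3cr1-gfp, and all cells were taken 32 weeks later. Leptomeningeal cells were rinsed from the brain surface after a first digestion, the brain was then digested further and cleared on Percoll for microglia, and actinomycin D was present throughout. Up to 100000 cells per library were sorted, and polyadenylated RNA was counted by MARS-seq, which tags the 3' end of each transcript with a unique molecular identifier (UMI). Host microglia carried no colour. Monocyte-derived cells carried GFP and TdTomato, and cells with GFP alone are called derived from haematopoietic stem cells (HSC), as in the labels. There were 4 libraries of microglia from each of the host, the monocyte-derived and the HSC-derived cells. Leptomeningeal macrophages came from 4 monocyte-derived and 2 HSC-derived libraries.

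The model has limits that touch every comparison. Ms4a3-Cre acts in granulocyte-monocyte progenitors and marks their progeny, and the share of such cells that escaped the label was not checked. Only donor cells carried the Cx3cr1-gfp allele, so that allele and donor origin cannot be told apart. No host leptomeningeal group was analysed here, so the resident border macrophages give no reference level. The labels do not say that replicates came from separate mice, and p-values then measure only the spread between these samples. In bulk RNA, a larger share of cells that express a gene and more RNA per cell cannot be told apart.

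Total UMI counts per library ran from 154727 to 2440234. Libraries called shallow here, 3 in all, held fewer than 400000 counts, namely replicates 3 and 4 of HSC-derived microglia (264795 and 317872) and replicate 2 of HSC-derived leptomeningeal macrophages (154727). Levels are given as CPM, counts scaled to library size, and 3 counts corresponded to between 1.05 and 23.1 CPM. A list of 24 ribosomal protein genes made up 4.94% and 4.69% of counts in the shallow HSC-derived microglia, against 3.25% and 3.36% in the other replicates of that group. The microglial genes P2ry12 and Tmem119 had 4688 ± 513 and 2607 ± 405 CPM (SD, n = 4) in the host cells, and 280 ± 58.3 and 91.7 ± 0.982 CPM (SD, n = 2) in HSC-derived leptomeningeal macrophages. Mrc1, which encodes the mannose receptor of border macrophages, ran from 26.6 ± 2.11 CPM in host microglia to 1791 ± 572 in HSC-derived leptomeningeal macrophages. Donor-derived microglia lay between these: P2ry12 had 1575 ± 115 and 1245 ± 226 CPM (SD, n = 4), Mrc1 597 ± 29.2 and 606 ± 57.04, and the microglial regulator gene Sall1 31.4 ± 8.59 and 19.8 ± 12.9 against 326 ± 10.7 in the host, in monocyte-derived and HSC-derived cells. Of 14 microglia markers, 12 were lower than in host microglia in each donor-derived group. The shares of all tested genes that were lower were 15.1% in monocyte-derived and 13.1% in HSC-derived microglia.

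Of the 10 genes, 9 were higher in monocyte-derived than in host microglia, where 15.1% of all tested genes were higher, and 9 were higher in HSC-derived than in host microglia, against 16.3%. In leptomeningeal macrophages against microglia of the same origin, 9 of 10 were higher in each origin, against 19.0% of tested genes for monocyte-derived and 5.75% for HSC-derived cells. None of the 10 was lower in these 4 comparisons, in the order just given, where 15.1%, 13.1%, 16.3% and 3.97% of all genes were, and 30.2%, 29.4%, 35.3% and 9.72% passed in either direction. The exceptions were Fcna in both comparisons with host microglia and Stab1 in both comparisons between compartments. Fcna passed the filter on low counts through leptomeningeal libraries alone and Lyve1 mostly through them, and 7 others passed in all donor-derived libraries and no host library. Their counts of higher calls, and the lack of lower ones, therefore follow in part from the filter and are not support for a shared behaviour. Both comparisons with host microglia share the host libraries, so they are not independent of each other.

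Promoter sequences are shown for 4 genes that mark the range of patterns: Pf4 and F13a1, with no overlap between groups that neighbour each other in level, Cd163, and Stab1, the 1 gene of the set that was abundant in host microglia. Each is the 250 bases before the RefSeq transcription start on GRCm38.p6, the assembly that mm10 names, printed 5′ to 3′ on the gene's strand. Capitals mark the core motif of PU.1, a transcription factor of the macrophage lineage, as GAGGAA or its reverse complement. The Pf4 window lies at chr5:90772185-90772434 on the plus strand, that of F13a1 at chr13:37050245-37050494 on the minus strand, that of Cd163 at chr6:124304401-124304650 on the plus strand and that of Stab1 at chr14:31168642-31168891 on the minus strand. The window of the other F13a1 start, chr13:37049214-37049463, holds no PU.1 core and is not printed.
Pf4: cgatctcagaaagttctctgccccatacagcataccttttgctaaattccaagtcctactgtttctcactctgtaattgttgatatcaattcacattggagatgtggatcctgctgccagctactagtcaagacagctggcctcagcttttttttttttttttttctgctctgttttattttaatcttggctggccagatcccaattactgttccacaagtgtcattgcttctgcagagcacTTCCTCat
F13a1: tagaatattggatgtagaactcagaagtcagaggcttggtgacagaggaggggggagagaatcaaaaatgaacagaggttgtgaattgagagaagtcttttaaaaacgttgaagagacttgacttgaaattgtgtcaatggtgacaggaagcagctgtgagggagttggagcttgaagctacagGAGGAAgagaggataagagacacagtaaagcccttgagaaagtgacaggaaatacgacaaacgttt
Cd163: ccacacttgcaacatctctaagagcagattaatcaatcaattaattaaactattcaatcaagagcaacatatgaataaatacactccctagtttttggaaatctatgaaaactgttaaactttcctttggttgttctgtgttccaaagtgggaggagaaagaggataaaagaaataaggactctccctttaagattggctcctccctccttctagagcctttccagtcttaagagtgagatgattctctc
Stab1: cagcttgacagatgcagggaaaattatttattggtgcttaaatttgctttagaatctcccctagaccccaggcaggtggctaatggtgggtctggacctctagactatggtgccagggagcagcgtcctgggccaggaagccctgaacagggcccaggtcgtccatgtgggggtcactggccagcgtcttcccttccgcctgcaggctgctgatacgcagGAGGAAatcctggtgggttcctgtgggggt

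Of the 10 genes, 8 had RefSeq promoters, 10 promoters in all because Folr2 and F13a1 have 2 starts each; Lyve1 and Msr1 had no entry. The PU.1 core was in 5 of those 8 genes (Cbr2, F13a1, Fcna, Pf4 and Stab1), against 23.3% of 32851 mouse promoters of the same length. The MAF motif TGCTGA was in 4 (Cd36, Fcna, Folr2 and Stab1), against 16.1%, and the E-box CATGTG, bound by TFE factors, in 4 (Cbr2, Fcna, Folr2 and Stab1), against 12.3%. The AP-1 motif TGANTCA was in Folr2 alone, against 6.75%, and the C/EBP motif TTGCNNAA in Pf4 alone, against 9.56%. The PPAR motif, which is AGGNCA repeated after 1 spacer base, was in none of the 8 and in 0.338% of all promoters. Both strands were searched, a gene with 2 promoters counts once, and matches of different motifs may overlap. These matches describe letters in a window and are not sites of binding.

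**Figure D1:**
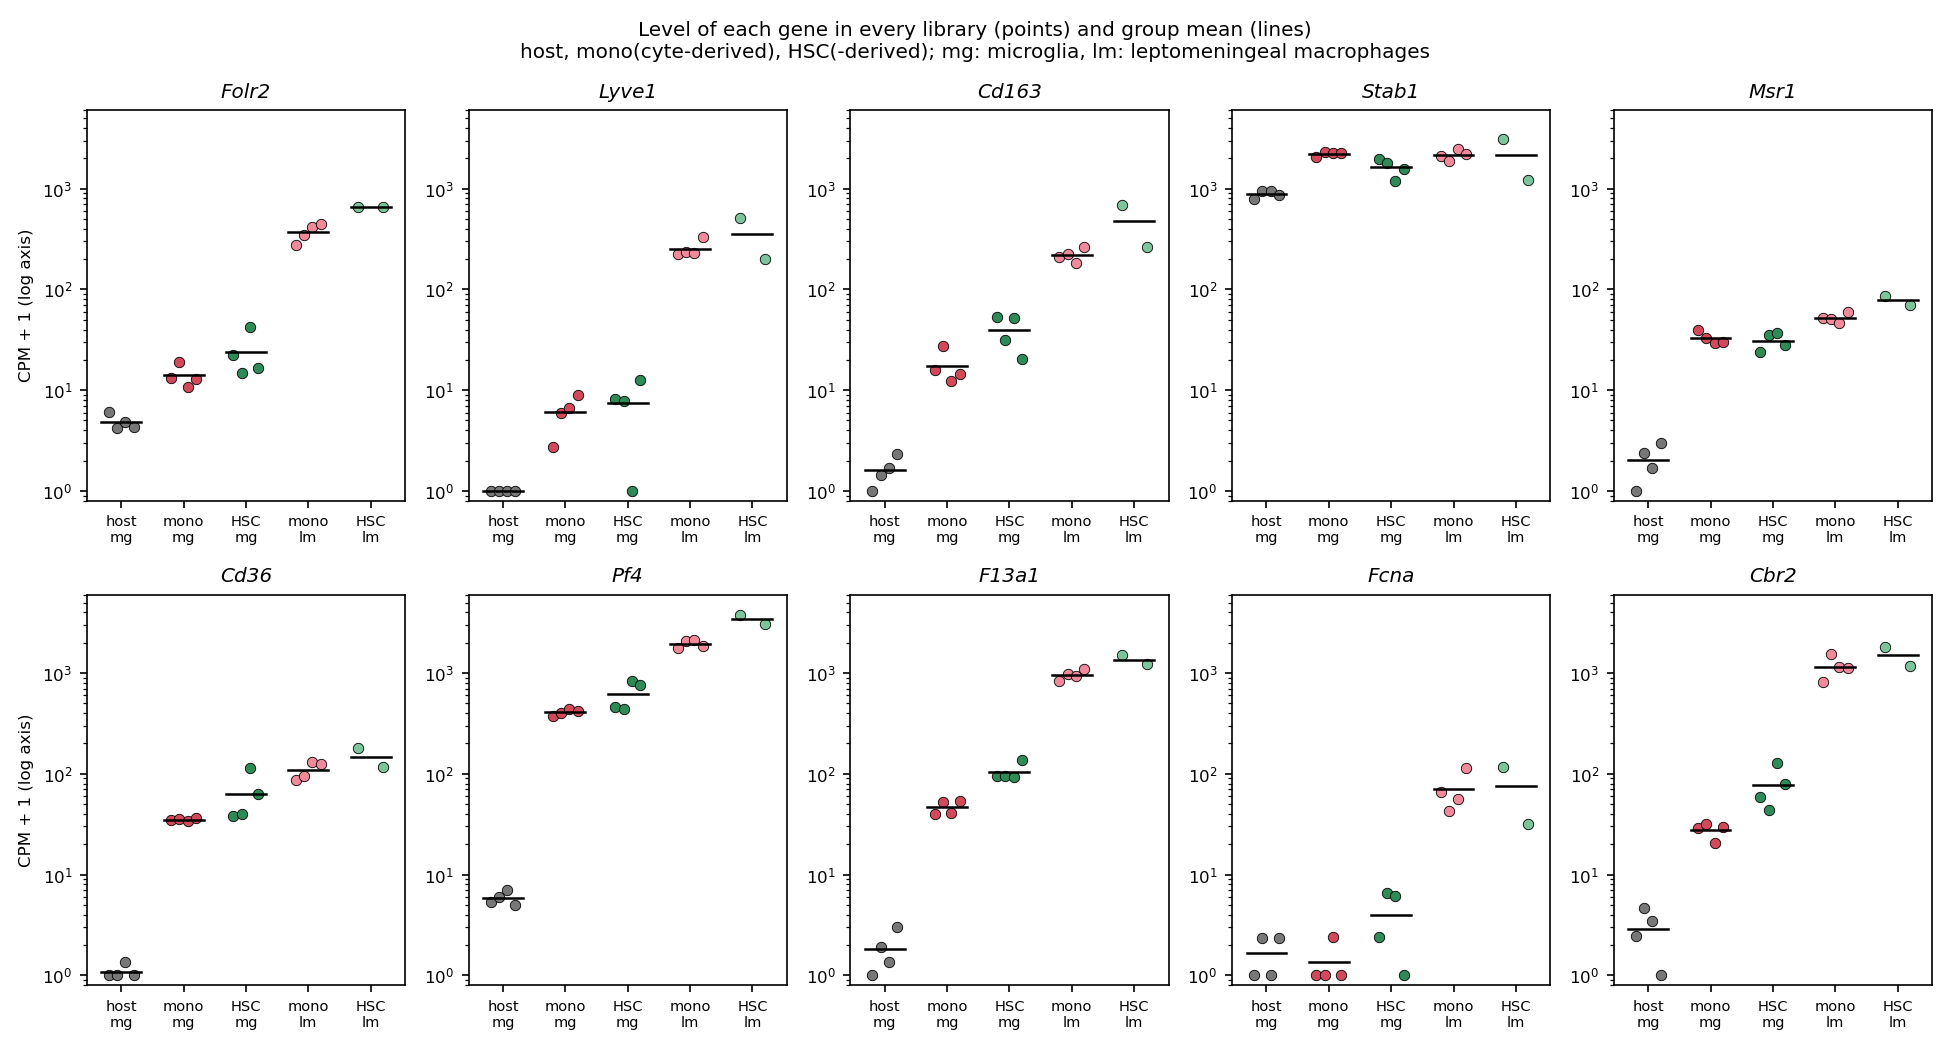
Level of each of the 10 genes in every library, as CPM + 1 on a log axis, with points for libraries and a line for the group mean. Stab1 is at or above 786 CPM in every library, and the other 9 genes lie near the bottom of the axis in host microglia and highest in leptomeningeal macrophages.

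Folr2 (chr7:101839988-101857194, minus strand, protein coding) encodes folate receptor beta, a surface protein that takes up folate and marks border macrophages. Host microglia had 5.01, 3.18, 3.86 and 3.35 CPM in replicates 1 to 4, and monocyte-derived microglia had 12.1, 18.2, 9.81 and 11.97. HSC-derived microglia had 21.3, 13.7, 41.0 and 15.7 CPM, with the highest value in the shallow replicate 3. Every donor-derived microglia library lay above every host library, and the donor-derived groups overlapped each other. Leptomeningeal macrophages had 275, 347, 419 and 450 CPM when monocyte-derived and 656 and 662 when HSC-derived, with no overlap with microglia or between origins. The microglial mean was 3.50% of the leptomeningeal mean in monocyte-derived cells and 3.48% in HSC-derived cells. Against host microglia, the log2 fold change was 1.74 (SE 0.32, adjusted p = 4.51e-05) for monocyte-derived and 2.37 (SE 0.37, adjusted p = 5.68e-06) for HSC-derived microglia by edgeR's quasi-likelihood test with Benjamini-Hochberg adjustment, the test behind every adjusted p below. Leptomeningeal macrophages exceeded microglia by 4.85 (SE 0.20, adjusted p = 5.31e-19) and 5.04 (SE 0.26, adjusted p = 4.66e-16) log2 units in monocyte-derived and HSC-derived cells.

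Lyve1 (chr7:110850607-110863239, minus strand, protein coding) encodes a hyaluronan receptor of border macrophages and of lymphatic endothelium. No UMI was counted in any of the 4 host microglia libraries, and 3 counts over that group would be 0.378 CPM. Monocyte-derived microglia had 1.73, 4.97, 5.60 and 7.98 CPM, from 27 counts, and HSC-derived microglia had 7.08, 6.87, 0 and 11.7, from 13 counts. Those levels were at least 12.7-fold and at least 18.3-fold higher than in host microglia (adjusted p = 0.000729 and 0.00121), and the HSC-derived and host ranges met at 0 in the shallow replicate 3. Leptomeningeal macrophages had 226, 234, 226 and 327 CPM when monocyte-derived and 515 and 200 when HSC-derived. All 6 of these libraries lay far above every microglia library, and the microglial means were 2.00% and 1.80% of the leptomeningeal ones. The difference between compartments was 5.68 (SE 0.32, adjusted p = 1.25e-10) and 5.82 (SE 0.43, adjusted p = 3.39e-08) log2 units. Of 15 endothelial markers, 7 were in the table and summed to between 17.2 and 25.3 CPM in monocyte-derived leptomeningeal macrophages and between 0 and 8.59 in HSC-derived ones, and Prox1, the lymphatic marker among those 7, was at 0 in both groups. The part of endothelial cells in the Lyve1 levels was not tested.

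Cd163 (chr6:124304656-124330527, plus strand, protein coding) encodes the receptor that clears haemoglobin bound to haptoglobin. Host microglia had 0, 0.455, 0.702 and 1.34 CPM, 5 counts in all. Monocyte-derived microglia had 15.0, 26.5, 11.2 and 13.6 CPM, and HSC-derived microglia had 52.4, 30.2, 51.2 and 19.6. Both donor-derived groups lay above the host libraries, by 4.48 (SE 0.59, adjusted p = 3.32e-06) and 5.73 (SE 0.59, adjusted p = 1.07e-07) log2 units, and they overlapped each other. Leptomeningeal macrophages had 209, 223, 183 and 260 CPM when monocyte-derived, and 685 and 262 when HSC-derived, where the lower value was that of the shallow library. Each leptomeningeal library exceeded every microglia library, with log2 differences of 3.74 (SE 0.27, adjusted p = 5.54e-10) and 3.72 (SE 0.33, adjusted p = 6.57e-08) within monocyte-derived and HSC-derived cells. The microglial mean was 7.57% and 8.10% of the leptomeningeal mean.

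Stab1 (chr14:31139013-31168641, minus strand, protein coding) encodes stabilin-1, a scavenger receptor that also binds apoptotic cells. It was abundant everywhere, at 786, 944, 942 and 867 CPM in the host group and 2053, 2336, 2238 and 2284 when microglia were monocyte-derived. HSC-derived microglia had 1955, 1792, 1194 and 1585 CPM, with both shallow libraries lowest. All donor-derived microglia libraries lay above the host libraries, by 1.33 (SE 0.20, adjusted p = 2.32e-06) and 0.89 (SE 0.20, adjusted p = 0.000859) log2 units for monocyte-derived and HSC-derived cells. Monocyte-derived leptomeningeal macrophages had 2130, 1875, 2492 and 2187 CPM, inside and around the range of the microglia of that origin, and HSC-derived ones had 3137 and 1209. The compartments differed by -0.04 (95% interval -0.44 to 0.36, adjusted p = 0.907) log2 units in monocyte-derived and 0.43 (-0.06 to 0.92, adjusted p = 0.307) in HSC-derived cells. In HSC-derived cells, the log2 difference was 0.95 without leptomeningeal replicate 2. It was 0.75 without all shallow libraries, replicate 2 among them, and -0.52 without leptomeningeal replicate 1. Each of these fits left 1 HSC-derived leptomeningeal library, so the estimate followed the library that was kept.

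Msr1 (chr8:39581685-39642673, minus strand, protein coding) encodes the class A scavenger receptor for modified lipoproteins. Host microglia had 0, 1.36, 0.702 and 2.01 CPM, monocyte-derived microglia 38.6, 32.3, 28.7 and 28.7, and HSC-derived microglia 22.7, 34.4, 35.9 and 27.4. The host libraries were lowest without overlap, and the donor-derived groups overlapped. Leptomeningeal macrophages had 50.6, 49.4, 45.3 and 58.6 CPM when monocyte-derived and 85.9 and 69.3 when HSC-derived. The step from host to donor-derived microglia was 4.86 (SE 0.33, adjusted p = 3.35e-14) log2 units for monocyte-derived and 4.72 (SE 0.40, adjusted p = 1.88e-11) for HSC-derived cells. The step from microglia to leptomeningeal macrophages was 0.66 (SE 0.18, adjusted p = 0.00485) and 1.47 (SE 0.31, adjusted p = 0.00121), and the microglial means were 63.0% and 38.8% of the leptomeningeal ones.

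Cd36 (chr5:17781690-17888801, minus strand, protein coding) encodes a class B scavenger receptor that takes up oxidised lipoproteins and long-chain fatty acids. Host microglia had a single count, in replicate 3 (0.351 CPM). Monocyte-derived microglia had 33.4, 34.8, 32.9 and 35.1 CPM, and HSC-derived microglia had 36.8, 38.5, 113 and 62.6, where the shallow replicates 3 and 4 were the 2 highest. The ratio of counts to host microglia was 270 (95% exact Clopper-Pearson interval 47.8 to 10704) for monocyte-derived and 388 (67.9 to 15473) for HSC-derived microglia, with adjusted p = 1.48e-13 and 1.46e-13. Leptomeningeal macrophages had 85.7, 94.4, 131 and 124 CPM when monocyte-derived and 179 and 116 when HSC-derived, and the former overlapped HSC-derived microglia. Within an origin the compartments did not overlap, with log2 differences of 1.68 (SE 0.20, adjusted p = 3.02e-08) and 1.62 (SE 0.30, adjusted p = 0.000239), and microglial means were 31.3% and 42.6% of the leptomeningeal ones.

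Pf4 (chr5:90772435-90773383, plus strand, protein coding) encodes platelet factor 4, a chemokine of platelets that border macrophages also express. Host microglia had 4.29, 5.00, 5.97 and 4.02 CPM, monocyte-derived microglia 375, 401, 436 and 415, and HSC-derived microglia 463, 438, 830 and 751. The shallow replicates were again the highest of the HSC-derived microglia. Leptomeningeal macrophages had 1752, 2061, 2143 and 1872 CPM when monocyte-derived and 3791 and 3066 when HSC-derived, so the 5 groups followed each other with no overlap. The rise over host microglia was 6.32 (SE 0.25, adjusted p = 1.52e-20) and 6.91 (SE 0.26, adjusted p = 2.94e-21) log2 units in monocyte-derived and HSC-derived microglia. Leptomeningeal macrophages exceeded microglia by 2.27 (SE 0.18, adjusted p = 6.61e-12) and 2.50 (SE 0.21, adjusted p = 1.14e-10), and the microglial means were 20.8% and 18.1% of theirs. Of 14 markers of platelets and megakaryocytes, 6 were in the table, and they summed to between 164 and 195 CPM in the host group, 34.3 and 60.7 in monocyte-derived and 11.7 and 113 in HSC-derived microglia, 20.9 and 35.7 in monocyte-derived and 29.2 and 30.8 in HSC-derived leptomeningeal macrophages. Every donor-derived library lay below the host range of that sum. The part of platelets in the Pf4 levels was not tested.

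F13a1 (chr13:36867178-37050244, minus strand, protein coding) encodes the A subunit of coagulation factor XIII, a transglutaminase that monocytes and macrophages make. Host microglia had 0, 0.909, 0.351 and 2.01 CPM, 6 counts in all. Monocyte-derived microglia had 39.2, 51.3, 39.9 and 52.7 CPM, and HSC-derived microglia 93.5, 93.4, 92.2 and 137. Leptomeningeal macrophages had 827, 981, 940 and 1088 CPM when monocyte-derived and 1494 and 1217 when HSC-derived, and no group overlapped another. The rise over host microglia was 5.72 (SE 0.34, adjusted p = 7.47e-16) and 6.88 (SE 0.33, adjusted p = 3.73e-18) log2 units in monocyte-derived and HSC-derived microglia. The compartments differed by 4.39 (SE 0.19, adjusted p = 5.31e-19) and 3.74 (SE 0.21, adjusted p = 4.25e-15), and the microglial means were 4.77% and 7.67% of the leptomeningeal ones. Of 16 monocyte markers, 15 were in the table, and they summed to 22.8 to 30.9 CPM in the host group, 173 to 247 in monocyte-derived and 184 to 228 in HSC-derived microglia, 1109 to 1413 in monocyte-derived and 608 to 962 in HSC-derived leptomeningeal macrophages. As for F13a1, the sum was higher in donor-derived than in host microglia and higher again in leptomeninges. Between origins, the sum was lower in HSC-derived than in monocyte-derived leptomeningeal libraries, and it overlapped between microglia of both origins. The F13a1 values of the HSC-derived leptomeningeal libraries lay above the monocyte-derived ones, but that difference did not pass the test. Its log2 value, monocyte-derived against HSC-derived, was -0.51 (SE 0.19, adjusted p = 0.321). Markers at 0 included Chil3, Ifitm6 and Hp in host microglia, and Chil3, Fn1, Hp and Ace in HSC-derived microglia. The part of monocytes in these results was not tested.

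Fcna (chr2:25624666-25628030, minus strand, protein coding) encodes ficolin-A, a secreted lectin of the complement system. Host libraries had 0, 1.36, 0 and 1.34 CPM, with 0, 0, 1.40 and 0 in monocyte-derived and 1.42, 5.50, 5.12 and 0 in HSC-derived microglia, which is 5, 2 and 6 counts per group. The 3 microglia groups overlapped at this depth. Leptomeningeal macrophages had 65.3, 41.7, 55.5 and 114 CPM when monocyte-derived, and 117 and 30.8 when HSC-derived, all above every microglia library. For monocyte-derived cells the ratio of counts between compartments was 202 (95% exact interval 55.5 to 1674, adjusted p = 2.82e-08), and for HSC-derived cells the log2 difference was 4.83 (SE 0.74, adjusted p = 0.000171). Between HSC-derived and host microglia the log2 difference was 2.16 (95% interval -0.62 to 4.93, adjusted p = 0.246). Monocyte-derived and host microglia, at 2 and 5 counts, had a host to monocyte-derived ratio of 1.77 (95% exact interval 0.290 to 18.6, adjusted p = 0.786), so a difference was not detectable at this depth.

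Cbr2 (chr11:120729489-120732114, minus strand, protein coding) encodes carbonyl reductase 2, an enzyme that reduces carbonyl compounds and that marks border macrophages among brain macrophages. Host microglia had 1.43, 3.64, 2.46 and 0 CPM, monocyte-derived microglia 28.2, 30.6, 19.6 and 28.7, and HSC-derived microglia 58.1, 42.6, 128 and 78.3, with the shallow libraries highest. These 3 groups followed each other without overlap. Leptomeningeal macrophages had 809, 1531, 1139 and 1113 CPM when monocyte-derived and 1831 and 1178 when HSC-derived, far above all microglia and overlapping each other. Cbr2 rose over host microglia by 3.60 (SE 0.44, adjusted p = 1.18e-06) and 4.93 (SE 0.45, adjusted p = 1.72e-08) log2 units in monocyte-derived and HSC-derived microglia. The compartments differed by 5.42 (SE 0.30, adjusted p = 4.15e-12) and 4.49 (SE 0.33, adjusted p = 3.24e-09), and the microglial means were 2.33% and 5.10% of the leptomeningeal ones.

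**Figure D2:**
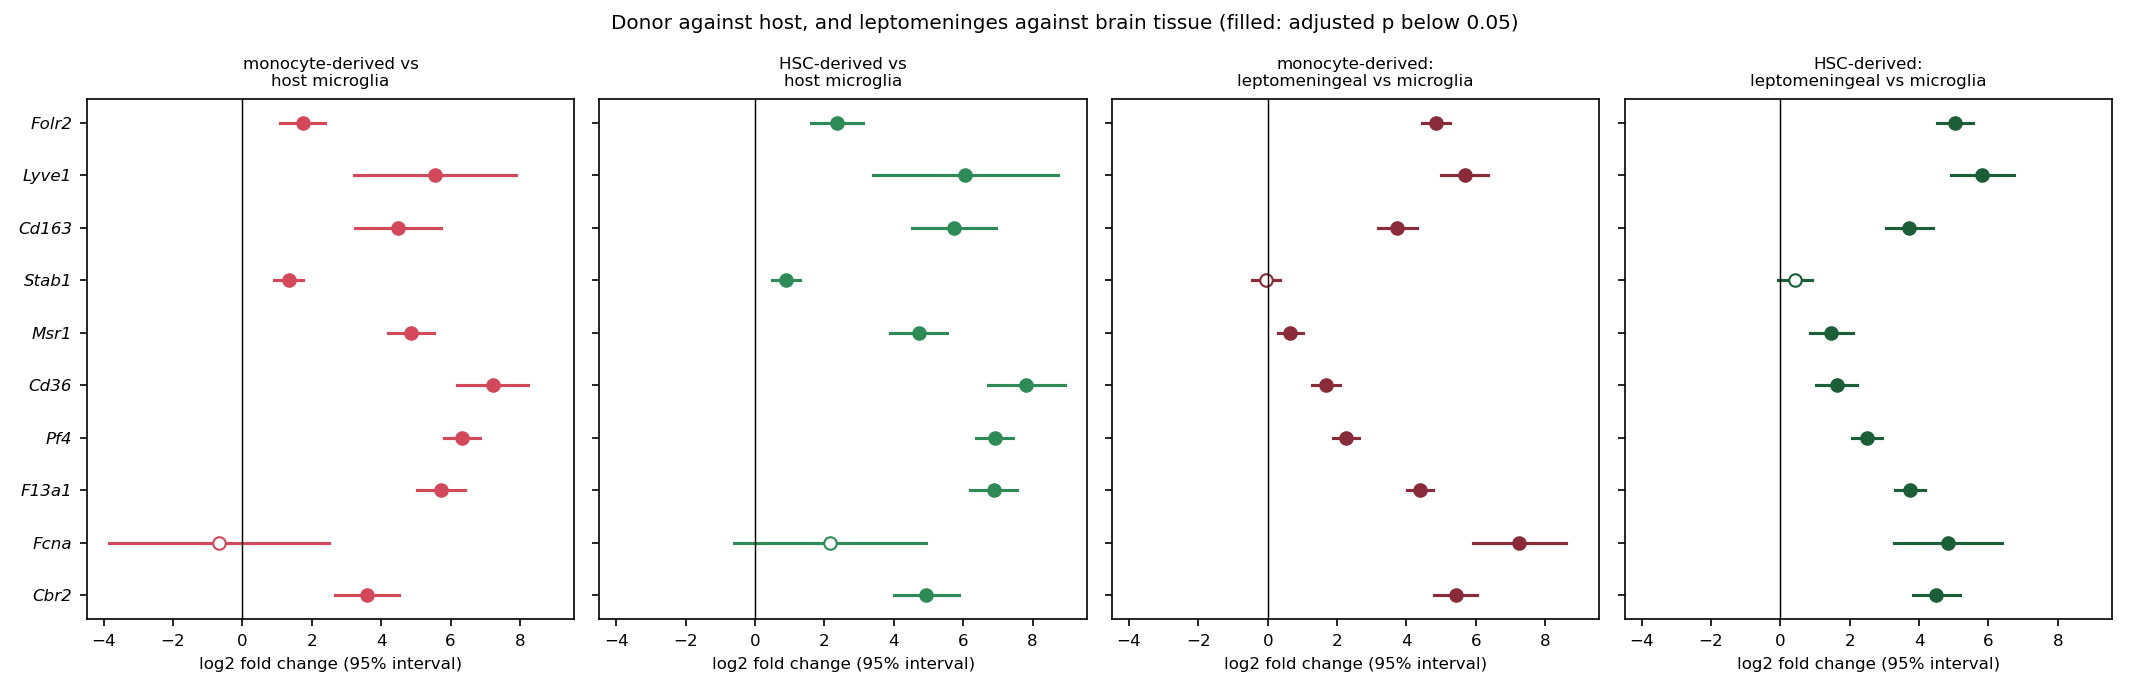
Log2 fold changes (points) with 95% intervals (bars) of the 10 genes in donor-derived against host microglia and in leptomeningeal macrophages against microglia of the same origin, with filled points at adjusted p below 0.05. Folr2, Lyve1, Fcna and Cbr2 lie farthest right between compartments, and Pf4, Cd36 and Msr1 lie farther right against host microglia; the Lyve1 points against host microglia rest on a host group with no count and are not bounds.

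The genes thus differed in where their large step lay. For Cd36, Msr1, Pf4, F13a1, Cd163 and Stab1 the fitted step from host to donor-derived microglia was larger than the step from microglia to leptomeningeal macrophages in both origins. For Folr2 and Fcna the second step was larger in both, and for Cbr2 it was larger in monocyte-derived and smaller in HSC-derived cells. For Lyve1 the fitted steps were 5.56 and 5.68 log2 units in monocyte-derived cells and 6.07 and 5.82 in HSC-derived cells. The first step of Lyve1 rests on a host group with no count, so its steps were not ranked. The difference between the steps was not tested. Among the 10 genes, the smallest differences in profile over the 5 group means were those between F13a1 and Cbr2 (0.51 log2 units, root mean square), Folr2 and Lyve1 (0.61) and Lyve1 and Cbr2 (0.61), and the largest was that between F13a1 and Stab1 (3.02). This description uses log2(group mean CPM + 1) with the gene mean removed, and the points share libraries.

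**Figure D3:**
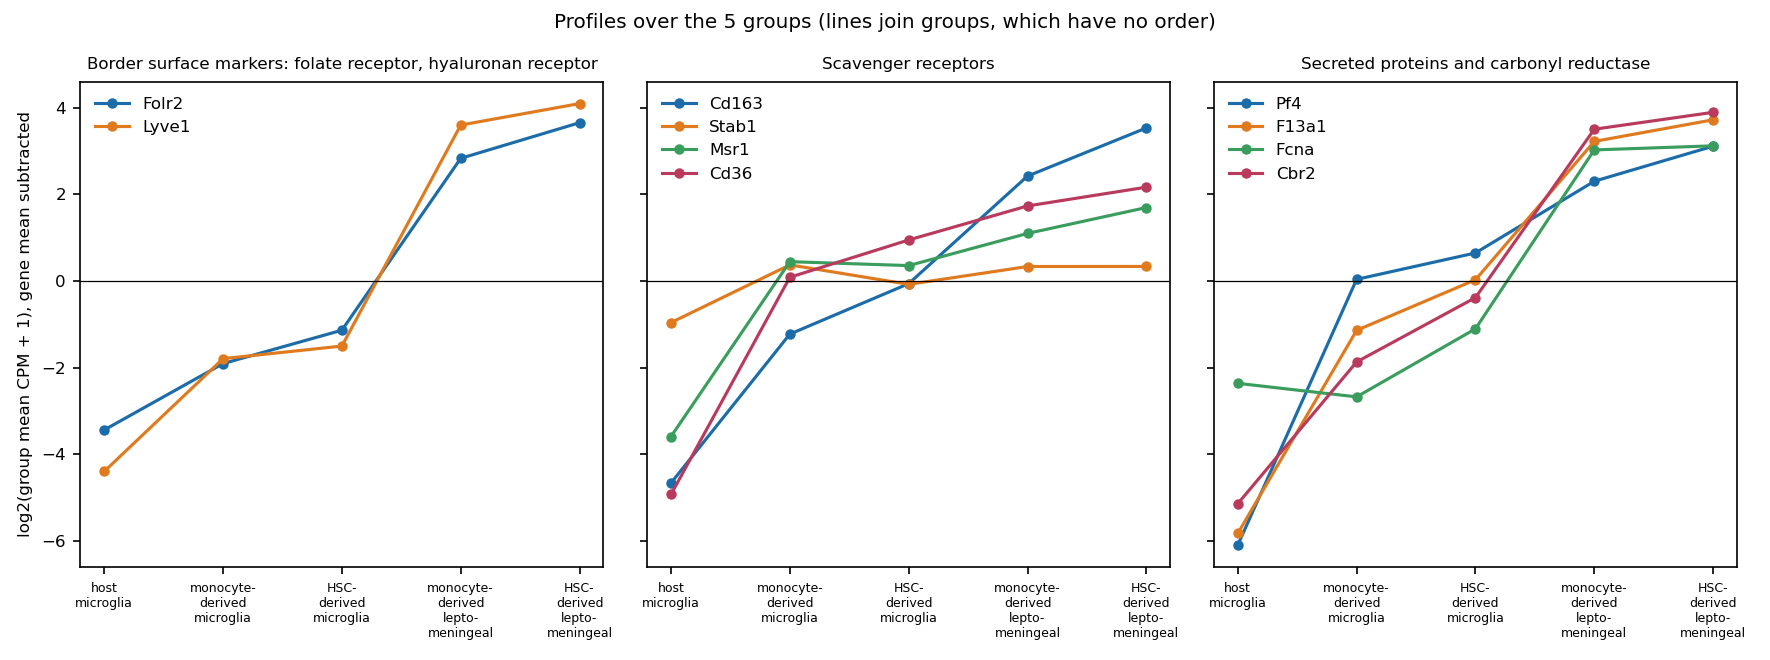
Profiles of the 10 genes over the 5 groups, as log2(group mean CPM + 1) with the mean of the gene over the groups subtracted, split by role. Stab1 runs flattest, and Cd36 and Msr1 reach most of their height in donor-derived microglia while Folr2 and Lyve1 step up in the leptomeninges. With no host count for Lyve1, the height of its first step depends on the added 1.

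Among 7302 other named genes with at least 20 CPM in their highest group, the closest profile to Folr2 was that of Cd209g (0.18 log2 units), followed by Mmp9 (0.32). Cd163 was closest to Cd209a (0.26) and Ccl7 (0.36), Cbr2 to Clec10a (0.42) and Mgl2 (0.43), and F13a1 to Mgl2 (0.46) and Ccl8 (0.60). The nearest to Lyve1 were Mmp9 (0.43) and Cd209f (0.47), and to Pf4 the MHC class II genes Cd74 (0.50) and H2-Eb1 (0.51). Cd36 was nearest to Wfdc17 (0.24) and Plbd1 (0.34), Msr1 to the interferon-inducible Ifi207 (0.20) and Ifi47 (0.25), Fcna to Avp (0.42) and Vtn (0.50), and Stab1, with its flat profile, to Dclre1c (0.07) and Magohb (0.08). Vtn belongs to the fibroblast and mural cell markers that are summed below, and Cd209a to the dendritic cell markers counted there.

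Median log2 fold changes over the 10 genes were 4.67 in monocyte-derived and 5.33 in HSC-derived microglia against host, where the medians of all tested genes were 0.01 and 0.00. With Lyve1 set at its lower bound they were 4.07 and 4.83. Between compartments the medians were 4.07 in monocyte-derived and 3.73 in HSC-derived cells, against -0.04 and -0.06 over all genes. No host library overlapped a monocyte-derived microglia library for 9 genes (19.2% of tested genes were higher without overlap) and an HSC-derived one for 8 (12%). Between compartments 9 genes did not overlap in monocyte-derived cells (19.7%) and 9 in HSC-derived cells (10.5%). None of the 10 lay wholly lower in these comparisons, against 19.2%, 15.1%, 17.5% and 10.9% of tested genes. Like the counts of calls, these counts without overlap follow in part from the filter on low counts. The calls against host microglia and between compartments of monocyte-derived cells were kept in every alternative in which the gene was tested; Lyve1 was not tested against host microglia with only the compared groups in the model. In HSC-derived cells, the calls of Cd36, Msr1 and Fcna between compartments were lost without leptomeningeal replicate 1, which left 1 library in that group. Those of Cd36 and Msr1 were also lost with only the compared groups in the model (adjusted p = 0.125 and 0.0567).

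Markers of leptomeningeal fibroblasts and mural cells moved with the compartment as well. Of 13 such markers, 7 were in the table, and they summed to 17.9 to 60.9 CPM in microglia of the host, 27.3 to 43.9 in those from monocytes and 74.2 to 630 in those from HSC. The sum was 2142 to 3336 CPM in monocyte-derived and 3298 to 9320 in HSC-derived leptomeningeal macrophages. Col1a2, Dcn, Pdgfrb and Slc6a13 were at 0 in host microglia, Dcn and Pdgfrb in monocyte-derived and Slc6a13 in HSC-derived microglia, and none of the 7 in the leptomeningeal groups. The ribosomal protein genes moved too: 23 of 24 were higher in leptomeningeal macrophages than in microglia of monocyte origin and 10 of 24 in those of HSC origin, and against host microglia 5 of 24 were higher in monocyte-derived and 23 of 24 in HSC-derived microglia. In the same order, the shares of all tested genes that were higher were 19.0%, 5.75%, 15.1% and 16.3%. Whether leptomeningeal cells in the microglia libraries, or RNA from them, had a part in the donor-derived microglial levels was not tested, nor was the part of the ribosomal shift in either step. Of 11 dendritic cell markers, 9 were tested. In leptomeningeal macrophages against microglia, 5 were higher and 2 lower in monocyte-derived cells, where 19.0% and 16.3% of tested genes were. In HSC-derived cells 2 were higher and 2 lower, against 5.75% and 3.97%. None of 4 erythroid genes was called between compartments. Their sum was 443 to 4267 CPM in HSC-derived and 210 to 1182 in monocyte-derived leptomeningeal macrophages and up to 942 in HSC-derived microglia. The part of fibroblast, mural, dendritic and erythroid cell RNA in the leptomeningeal levels was not tested either.

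Monocyte-derived and HSC-derived microglia were compared to ask whether the fate label went with different levels of these genes within the brain tissue. F13a1 and Cbr2 were lower in monocyte-derived microglia, 2 of the 10 genes against 1.76% of all tested genes, and 0 were higher, against 0.123%. At an unadjusted p under 0.05, 6 of the 10 differed. The share of all genes at that threshold was not computed, so that count is not a result about these genes. DESeq2 called 4 lower and 0 higher, where it called 524 of the 10597 tested genes lower and 28 higher. The log2 difference of F13a1 was -1.16 (SE 0.20, adjusted p = 0.00162), and the 4 monocyte-derived libraries lay below the 4 HSC-derived ones. That of Cbr2 was -1.34 (SE 0.33, adjusted p = 0.0419), also without overlap. The F13a1 call held in all 24 alternatives (adjusted p 0.000992 to 0.0243 with 1 library left out), and without the shallow libraries the difference was -1.03 (adjusted p = 0.00512). The Cbr2 call was kept in 10 of 24; it was lost when 1 of 10 libraries was left out, which were host replicates 1 and 3, all 4 monocyte-derived microglia, HSC-derived microglia replicates 3 and 4 and monocyte-derived leptomeningeal replicates 3 and 4, and without the shallow libraries (log2 difference -0.90, adjusted p = 0.472).

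The other genes did not pass the test between the microglia of both origins. Cd163 differed by -1.25 (95% interval -2.03 to -0.48, adjusted p = 0.0849), and without the shallow libraries by -1.32 (adjusted p = 0.0372). Pf4 differed by -0.58 (-0.95 to -0.22, adjusted p = 0.0831), with no overlap between the groups, but by -0.14 (adjusted p = 0.860) without the shallow libraries. Cd36 differed by -0.61 (-1.13 to -0.08, adjusted p = 0.229), and by -0.13 (adjusted p = 0.948) without the shallow libraries, so the higher HSC-derived levels of Pf4 and Cd36 lay in the shallow libraries. Msr1 differed by 0.14 (-0.36 to 0.64, adjusted p = 0.841), Stab1 by 0.44 (0.04 to 0.85, adjusted p = 0.266), Folr2 by -0.63 (-1.28 to 0.02, adjusted p = 0.340) and Lyve1 by -0.50 (-1.94 to 0.94, adjusted p = 0.788). Fcna, with 2 counts in monocyte-derived and 6 in HSC-derived microglia, had an HSC-derived to monocyte-derived ratio of counts of 8.95 (95% exact interval 1.60 to 90.7). That interval covers counting error only and leaves out the spread between libraries. The fitted log2 difference, monocyte-derived against HSC-derived, was -2.83 (95% interval -6.03 to 0.36, adjusted p = 0.390). Estimates were negative for 8 of the 10 genes, with a median of -0.62 against 0.02 over all genes. In the same comparison 19 of the 24 ribosomal protein genes were lower in monocyte-derived microglia, against 1.76% of all tested genes. The fibroblast and mural markers ran higher in HSC-derived microglia, as given above. The part of the ribosomal genes and of these markers in the differences was not tested.

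**Figure D4:**
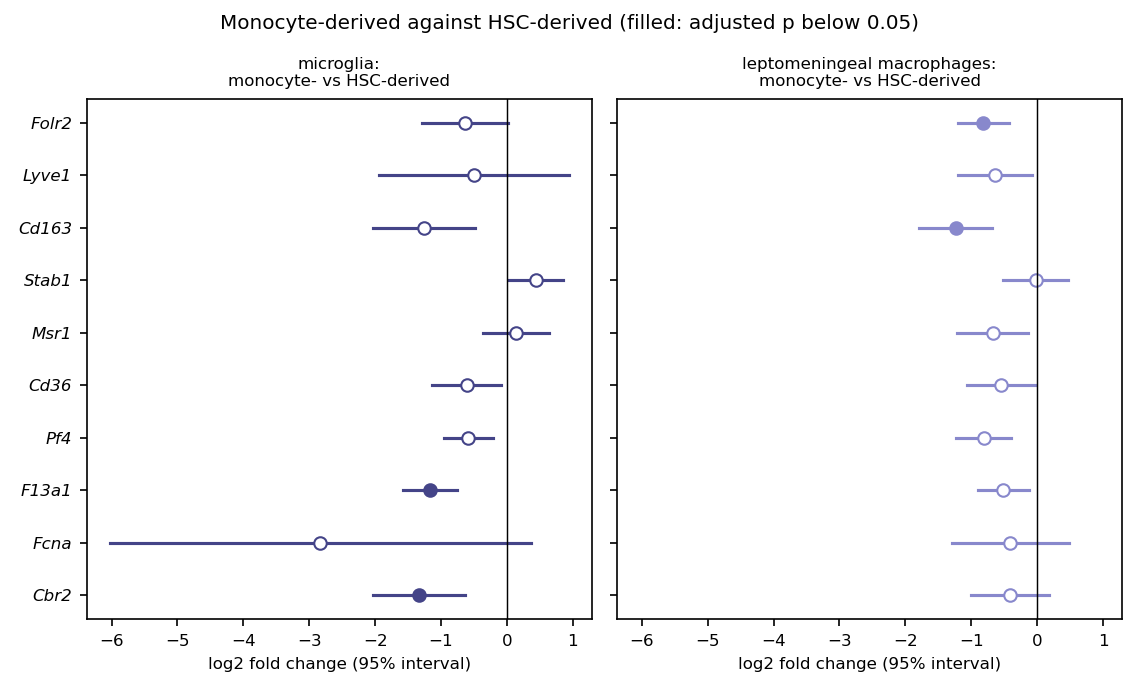
Log2 fold changes (points) with 95% intervals (bars) of monocyte-derived against HSC-derived cells, for microglia on the left and leptomeningeal macrophages on the right, with filled points at adjusted p below 0.05. F13a1 and Cbr2 are filled on the left and Cd163 and Folr2 on the right, and 8 and 10 of the 10 points lie below 0. On the right, the side of 0 depended on single libraries for Lyve1, Cbr2, Stab1, Cd36 and Fcna.

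In leptomeningeal macrophages, the same comparison of origins rested on 4 against 2 libraries, 1 of the 2 shallow. Cd163 (log2 difference -1.24, SE 0.26, adjusted p = 0.0418) and Folr2 (-0.82, SE 0.19, adjusted p = 0.0437) were lower in monocyte-derived cells, 2 of 10 genes against 0.142% of all tested genes, and 0 were higher, against 0.160%. At an unadjusted p under 0.05, 7 of the 10 differed, again with no share of all genes computed at that threshold. DESeq2 called 4 lower and 0 higher of the 8 to which it gave an adjusted p. Of the 10597 tested genes it called 36 lower and 34 higher. The Cd163 values of the HSC-derived libraries were 685 and 262 CPM against at most 260 in the monocyte-derived ones, so the second lay just above that range. Without HSC-derived replicate 1, which left 1 library in that group, the Cd163 difference was -0.17. The Cd163 call was lost when 1 of 11 libraries was left out. In microglia these were any host library, monocyte-derived replicates 1 and 4 and HSC-derived replicate 3. In leptomeninges they were monocyte-derived replicates 1 to 3 and HSC-derived replicate 1. The Folr2 call was lost when 1 of 13 libraries was left out (any host or monocyte-derived microglia, monocyte-derived leptomeningeal replicates 1 to 3 and both HSC-derived leptomeningeal ones), with adjusted p up to 0.191, and its estimate stayed between -0.93 and -0.68. All 10 estimates were negative, with a median of -0.59 against 0.07 over all genes. With 1 library left out, estimates rose above 0 for Lyve1 (up to 0.44), Cbr2 (0.053), Stab1 (0.94), Cd36 (0.016) and Fcna (1.28). For each of these genes, HSC-derived replicate 1 was the higher of the 2 libraries. Estimates of Cd163, Folr2, Pf4, F13a1 and Msr1 stayed negative. The shared direction thus depended on single libraries. Pf4 differed by -0.81 (95% interval -1.24 to -0.39, adjusted p = 0.0822) and Lyve1 by -0.64 (-1.21 to -0.07, adjusted p = 0.402). Without the shallow libraries these differences were -0.96 and -1.02. That fit kept 1 HSC-derived leptomeningeal library, replicate 1, which was the higher of the 2 for both genes. Monocyte-derived libraries lay wholly below HSC-derived ones for 5 of the 10 genes (9.52% of tested genes) and above them for 0 (17.2%). In microglia that held for 4 below (5.58%) and 1 above, Stab1 (5.05%). Other markers also differed between these leptomeningeal groups: Tmem119 was higher in monocyte-derived cells (log2 difference 1.24, adjusted p = 0.0248), as were 3 of 13 tested monocyte markers, whose median was 1.69, while the fibroblast and mural sum given above reached higher values in HSC-derived cells, with ranges that overlapped. Their part in the differences between origins was not tested.

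The interaction of origin with compartment asked whether the step from microglia to leptomeningeal macrophages differed between the origins. None of the 10 genes passed, and 0.0566% of all tested genes did. At an unadjusted p under 0.05, 3 of the 10 were counted, and the share of all genes at that threshold was not computed. DESeq2 called 0 of the 5 genes to which it gave an adjusted p, and gave none for Cd163, Lyve1, Cd36, Msr1 and Fcna. The estimates whose 95% intervals left out 0 were 0.93 for Cbr2 (0.01 to 1.84, adjusted p = 0.624), 0.65 for F13a1 (0.08 to 1.22, adjusted p = 0.555) and -0.82 for Msr1 (-1.55 to -0.09, adjusted p = 0.570). For Cd163 it was 0.01 (-0.69 to 0.72), and for Cd36 0.06 (-0.66 to 0.78).

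Other genes listed as border macrophage markers are set beside the 10. That list was chosen with earlier results of these data known. Some of its genes, such as Cd209f at 0 CPM in host microglia, could pass the filter only through donor-derived libraries. Its counts are therefore not support for a shared programme. Of 40 other border macrophage genes, 38 were tested, and 28 rose and 2 fell in monocyte-derived against host microglia, 27 rose and 3 fell in HSC-derived microglia. Over all tested genes, 15.1% rose and 15.1% fell in the first comparison and 16.3% and 13.1% in the second. The median log2 fold changes of the border macrophage genes were 3.62 and 3.81, and 2.83 and 3.52 with the 3 genes that had no host count at their bound. Clec12a, an inhibitory lectin receptor, rose from 1.32 ± 1.26 to 345 ± 6.79 CPM (SD, n = 4) in monocyte-derived microglia, and Ms4a7, a tetraspan protein of macrophages, from 6.05 ± 4.41 to 780 ± 30.5. Both were at like or lower levels in monocyte-derived leptomeningeal macrophages, 370 ± 48.2 and 480 ± 58.6 CPM, as was Cp, the gene of ceruloplasmin (539 ± 67.4 CPM in microglia and 380 ± 49.9 in leptomeninges). Between compartments 25 rose and 4 fell in monocyte-derived and 25 rose and 1 fell in HSC-derived cells, with medians of 1.58 and 1.89. Over all tested genes, 19.0% rose and 16.3% fell in monocyte-derived cells, and 5.75% and 3.97% in HSC-derived cells. The lectin genes Cd209f and Clec10a had 2.40 ± 1.67 and 11.2 ± 3.80 CPM in monocyte-derived microglia and 234 ± 53.1 and 328 ± 22.2 in leptomeninges. Between origins of microglia 3 were lower in monocyte-derived cells, namely Pla2g2d, a secreted phospholipase (log2 difference -2.28, adjusted p = 0.0112), the lectin gene Mgl2 (-1.96, adjusted p = 0.0163) and the chemokine gene Ccl8 (-2.18, adjusted p = 0.0424), and in leptomeninges 1, Cd209g (-1.19, adjusted p = 0.0103). The shares of all tested genes that were lower were 1.76% in microglia and 0.142% in leptomeninges.

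Of 24 other scavenger receptor genes, 15 were in the table and 12 were tested, and they did not move as a block. In monocyte-derived against host microglia 3 rose and 2 fell, and in HSC-derived microglia 4 rose and 3 fell, with medians of 0.30 and 0.41. Over all tested genes, 15.1% rose and 15.1% fell in the first comparison and 16.3% and 13.1% in the second, with medians of 0.01 and 0.00. Cxcl16, a chemokine and receptor for oxidised lipoprotein, rose by 1.89 and 2.03 log2 units, and the beta-glucan receptor gene Clec7a by 1.91 and 2.20. Scarf2, a class F scavenger receptor, was lower (-2.55 and -2.12). Between compartments 4 rose and 2 fell in monocyte-derived cells and 1 rose and 2 fell in HSC-derived cells, with Cd14, the lipopolysaccharide co-receptor, higher in leptomeninges by 2.36 and 1.47 and the lysosomal receptor Scarb2 lower (-1.38 and -1.99). Over all tested genes, 19.0% rose and 16.3% fell between compartments of monocyte-derived cells, and 5.75% and 3.97% in HSC-derived cells.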

How the data were processed

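The authors deposited a table of UMI counts per gene, all integers, beside scaled and log values that were not used. The genome build is mm10 per the submitters' processing notes; aligner, counter and prior filters: not given in the sources used here. A total of 20 libraries are in the table, of which 2 count columns matched no described sample and, with 42 scaled or log columns, entered no step. No pair of libraries was identical.

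With edgeR 4.0.16, run in R 4.3.3 beside limma 3.58.1, filterByExpr removed low genes; it needs about 8.51 CPM here. Libraries were scaled by TMM, and CPM use the scaled sizes. All 18 libraries entered 1 robust quasi-likelihood model with a coefficient per group, giving 7 comparisons. Tests were two-sided, adjusted by Benjamini-Hochberg over all tested genes, with a threshold of 0.05. The fit was tested on simulated counts. A group with no count was set to 3 counts over the group for a lower bound, and groups with 1 to 3 counts got exact 95% intervals of the count ratio. These exact intervals and bounds cover counting error only. Alternatives were DESeq2 1.42.0, its size factors, no filter, only the compared groups, a replicate block, no libraries under 400000 counts and each library left out. Gene positions are those of GENCODE vM21 and promoters those of RefSeq. The members and lists were chosen with earlier results of these data known. Named genes were all 10, up to 4 called genes of each other list with the smallest p per comparison, and the 2 nearest profiles to each member. The promoters printed were chosen after levels were seen, and the PPAR motif was lengthened to its full repeat after a shorter form had been searched, which also matched none of the 8 genes.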

Additional observations from a re-analysis of the deposited data

Results flagged for a closer look

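In 4 of 39 groups of 4 libraries, 1 library stood far from the others of its group. For normally distributed values, chance flags about 1 in 20 such groups. A group with 1 library above 0 and the others at 0 is always flagged, as for Cd36 and Fcna below. That rate therefore does not apply to all of these groups. Lyve1 was 327 CPM in replicate 4 of monocyte-derived leptomeningeal macrophages, against 226 to 234 in the others. F13a1 was 137 CPM in the shallow replicate 4 of HSC-derived microglia, against 92.2 to 93.5. Cd36 was 0.351 CPM in replicate 3 of host microglia and Fcna 1.40 CPM in replicate 3 of monocyte-derived microglia, against 0 in the other libraries of their groups, and these values are 1 and 2 counts.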

How the results depend on the processing

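Of 1664 refits of single genes under alternatives, 1565 kept direction and side of the threshold, 48 lost a call, 17 gained one and 34 changed sign, none of them on a called gene. Calls against host microglia held wherever the gene was tested. DESeq2 called 552 genes between origins of microglia (4 of the 10) against 200, 70 between origins of leptomeningeal macrophages (4 of the 8 given an adjusted p) against 32, and 49 for the interaction against 6. Without the shallow libraries these were 50, 72 and 6, with 4 of the 10 called in the leptomeninges. With only the compared groups, the counts were 2068 for HSC-derived against host microglia (3114), 20 and 1 of the 10 between origins of microglia, 16 and 0 of the 10 in leptomeninges, and 205 between compartments of HSC-derived cells (1030). Without a filter, 1 and 0 of the 10 were called between origins.

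Leaving out 1 library gave 31 to 555 genes and 1 to 3 of the 10 between origins of microglia, 12 to 90 and 0 to 3 in leptomeninges, 366 to 1242 and 6 to 10 between compartments of HSC-derived cells, and 0 to 40 for the interaction. Deviations from the group mean were little correlated between same-numbered libraries (32 pairs, r from -0.31 to 0.31, median 0.00, 1 over 0.1). In the group of 2 libraries such deviations mirror each other. The check cannot tell whether same-numbered libraries came from the same animals. With the replicate block, 1 of the 10 was called between origins of microglia, with 238 genes in all.

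Sign changes were the interaction of Cd163 with DESeq2 size factors (-0.0037) and without shallow libraries (-0.33), that of Cd36 without shallow libraries (-0.57) and with the replicate block (-0.13), and Stab1 between origins of leptomeninges without a filter (0.0085) and with the block (0.036). With 1 library left out, ranges that crossed 0 were -2.80 to 0.023 for Fcna against host in monocyte-derived microglia and -0.027 to 0.29 for Msr1 between origins of microglia. In leptomeninges between origins they were -1.03 to 0.44 (Lyve1), -0.68 to 0.053 (Cbr2), -0.54 to 0.94 (Stab1), -0.71 to 0.016 (Cd36) and -0.74 to 1.28 (Fcna). For Stab1 between compartments they were -0.12 to 0.027 and -0.52 to 0.95. For the interaction they were -0.42 to 1.07 (Cd163), -0.41 to 0.054 (Folr2), -0.55 to 0.92 (Lyve1), -0.40 to 0.0066 (Pf4), -1.0 to 0.48 (Stab1) and -0.25 to 0.60 (Cd36). The cause of these changes was not tested. Depth limits Fcna and Lyve1 in microglia, where a library held at most 10 counts.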

Other observations

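Of 17 genes that handle haem and lipid after scavenger uptake, 15 were tested, and 7 rose in monocyte-derived and 9 in HSC-derived against host microglia, with median log2 fold changes of 0.60 and 0.79. Over all tested genes, 15.1% and 16.3% rose, with medians of 0.01 and 0.00. Plin2, which coats lipid droplets, rose from 17.7 ± 3.68 to 50.6 ± 12.2 CPM (SD, n = 4) in monocyte-derived microglia, and the biliverdin reductase gene Blvrb from 113 ± 6.03 to 222 ± 13.3. Between compartments 7 rose and 5 fell in monocyte-derived cells, where 19.0% of all tested genes rose and 16.3% fell. Abca1, the cholesterol exporter, was lower in leptomeninges (128 ± 37.6 CPM) than in microglia (378 ± 13.9), as was the iron exporter gene Slc40a1 (40.1 ± 19.4 against 144 ± 9.78).

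Of 14 genes of folate and carbonyl metabolism, 11 were tested, and 1 rose and 2 fell in monocyte-derived against host microglia. Over all tested genes, 15.1% rose and 15.1% fell. Slc46a1, the proton-coupled folate transporter, fell from 113 ± 6.81 CPM in host to 42.7 ± 4.44 in monocyte-derived and 34.8 ± 7.77 in HSC-derived microglia and was 18.2 ± 6.62 in monocyte-derived leptomeningeal macrophages, the opposite order to Folr2. Cbr1, another carbonyl reductase gene, fell from 82.8 ± 5.07 to 51.3 ± 1.64 CPM in monocyte-derived microglia, and HSC-derived microglia had 82.9 ± 31.8.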
